A study of Drosophila melanogaster with 12 samples.

Results

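The genes described here encode the proteins of the cytosolic ribosome in Drosophila melanogaster. They were taken from a table of gene counts by symbol, as the rows whose name begins with RpL or RpS followed by a number, by P and a number, or by a final A. This rule found 77 genes among the 8802 of the table, of which 47 carry large subunit names (RpL) and 30 small subunit names (RpS). All 77 passed the filter on low counts. The second copies of RpS19, RpS28, RpL10A and RpL37, as well as RpSA, RpS12 and RpS6, were not analysed here.

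The study sought the target genes of Shavenbaby (Svb), a transcription factor encoded at the ovo locus, in the stem cells of the adult midgut. RNA from sorted cells was sequenced in 12 libraries, with 3 in each of 4 groups. Per the labels, the flies of every group had a single copy of esg-Gal4 with UAS-GFP and of tubGal80TS, a temperature-sensitive repressor of Gal4. The crosses added UAS-SvbRNAi (labelled svb RNAi), UAS-SvbACT::GFP (SvbACT) or UAS-Svb3Kmut::GFP (labelled SvbREP), and the control came from a cross to Canton-S, so it carried the driver and GFP with no svb transgene. Virgin females were aged for 3 days and then kept at 29 °C for 6 days to switch the transgenes on, and they were 9 days old at dissection. Each batch pooled more than 20 females, and cells came from regions R3 to R5 of the midgut. The esg driver is active in the progenitors of the gut, the stem cells and their undifferentiated daughters alike, so its GFP marks both. The replicates of a genotype were made on different days, per the series' design text.

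A ribosome consists of a small subunit, which binds messenger RNA and decodes it, and a large subunit, which joins amino acids into a chain and guides the chain out through an exit tunnel. Each subunit holds a single copy of nearly every one of its proteins, apart from the acidic stalk proteins. Flies that lack a single copy of most of these genes grow slowly and have thin bristles, the Minute phenotype, so the genes are known for their sensitivity to dose. Division and growth of gut progenitors depend on protein synthesis.

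The libraries held 2965852 to 6575392 counts, and SvbREP replicates 1 and 2 were the shallowest. The targeted gene, ovo, had 206 to 225 counts in the svb RNAi-labelled libraries, 8803 to 11901 in SvbACT, 6145 to 12642 in SvbREP, and 3, 4 and 64 in control. The counts of ovo were thus higher in the svb RNAi-labelled libraries than in control. They do not show a knock-down, and whether the transgenes add to them was not tested. Every direction given for the svb RNAi-labelled libraries rests on the label. The progenitor marker esg had 3831 to 14633 counts per library. Markers of other cells were mixed. The enterocyte gene mex1 had 6 to 30 counts and the haemocyte gene Hml 0 to 5, while the whole lists were higher. In control the summed level was 1463 to 1714 counts per 1000000 counts (CPM) for enterocyte, 1947 to 2158 for visceral muscle, 727.6 to 881.9 for tracheal, 496.1 to 891.9 for fat body and 266.3 to 358 for haemocyte markers. Most of the last 4 sums came from 1 gene each, with control means of 1315 CPM for Tm1, 801 for Mur2B, 629 for FASN1 and 292 for crq. Enteroendocrine peptide genes were present and uneven. The summed level of 18 listed enteroendocrine markers, of which 17 were in the table, ranged from 919.5 to 2076 CPM in the svb RNAi-labelled libraries, 799.8 to 1159 in SvbACT, 891.2 to 4359 in SvbREP and 729.8 to 1620 in control. All CPM values were scaled with TMM factors, which correct the library totals for genes that differ strongly.

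The genes of the cytosolic ribosome were among the most abundant in these cells. By mean CPM over all libraries, 68 of the 77 stood among the first 500 of 7992 genes tested, and 30 reached 1000 CPM or more. Ranks ran from 22 for RpL3, an RNA-binding protein next to the catalytic centre, to 4828 for RpS15Ab. They were also steadier than most genes between replicates. The median within-group SD of log2 CPM was 0.14 for the 77 genes, against 0.29 for all genes tested. Most genes tested had lower levels than these, and genes of similar level were not compared. The part of their high level in the smaller SD was therefore not tested. RpL7 had the smallest SD of the 77 genes at 0.07 and RpL38 the largest at 0.62.

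Levels were compared between genes after division by transcript length, in CPM per kb. The highest was RpL41 with 3691 CPM per kb, a very short peptide with a coding sequence of 75 bp. It was followed by RpL37a with 2949 and RpLP2 with 2469 CPM per kb. The transcript used for RpL37a has 565 bp, against 1296 bp for all its exons together, so its place depends on the length chosen. RpLP2 and RpLP1 form the acidic stalk that recruits elongation factors, and RpLP0 anchors that stalk to the large subunit. RpLP1 had 1520 and RpLP0 1387 CPM per kb. The proteins made as fusions with ubiquitin, RpL40 and RpS27A, had 2406 and 1292 CPM per kb. The lowest were RpS15Ab with 21.0, RpLP0-like with 41.8 and RpL34a with 142 CPM per kb. RpLP0-like and RpL24-like, at 186 CPM per kb, match the naming rule although their yeast counterparts act in ribosome assembly and not in the finished ribosome.

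The 77 genes are compact, with coding sequences of 75 bp (RpL41) to 1248 bp (RpL3) and a median of 465 bp, against 1461 bp for the other genes of the table. In the Ensembl annotation, 25 of them (32.5%) have a small nucleolar RNA gene nested in them, against 60 of the other matched genes (0.7%). These RNAs guide the chemical modification of ribosomal RNA and are made from introns of their hosts. The 77 genes lie on every major chromosome arm, with 12 on X, 16 on 2L, 17 on 2R, 13 on 3L, 18 on 3R and 1, RpS3A, on chromosome 4. Exons of 22 of the 77 overlap another gene of the table. Strand use in the counting is not given in the sources used here, so counts of these 22 are uncertain.

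As a whole, the 77 genes took between 6.39% and 8.24% of all counts in each library. The share was 8.24%, 8.11% and 8.02% in the svb RNAi-labelled libraries, 7.13%, 7.91% and 6.39% in SvbACT, 7.14%, 6.63% and 6.85% in SvbREP, and 7.26%, 6.84% and 6.95% in control. The svb RNAi-labelled libraries lay above all others on this scale, with a mean of 8.13 ± 0.11% (SD, n = 3) against 7.02 ± 0.22% in control (SD, n = 3). With the library size scaled by TMM, the gap shrank and the groups overlapped. The scaled share was 7.81%, 7.39% and 7.85% in the svb RNAi-labelled libraries and 7.53%, 6.89% and 7.35% in control. The mean TMM factors were 1.06 in the svb RNAi-labelled libraries and 0.97 in control. SvbACT and SvbREP overlapped control on both scales. Counting error was small beside the spread between replicates, with 95% Wilson intervals no wider than 7.11% to 7.17% around the share in SvbREP replicate 1, the shallowest library. In bulk RNA of sorted cells, fewer cells of a type and less RNA per cell cannot be told apart.

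**Figure D1:**
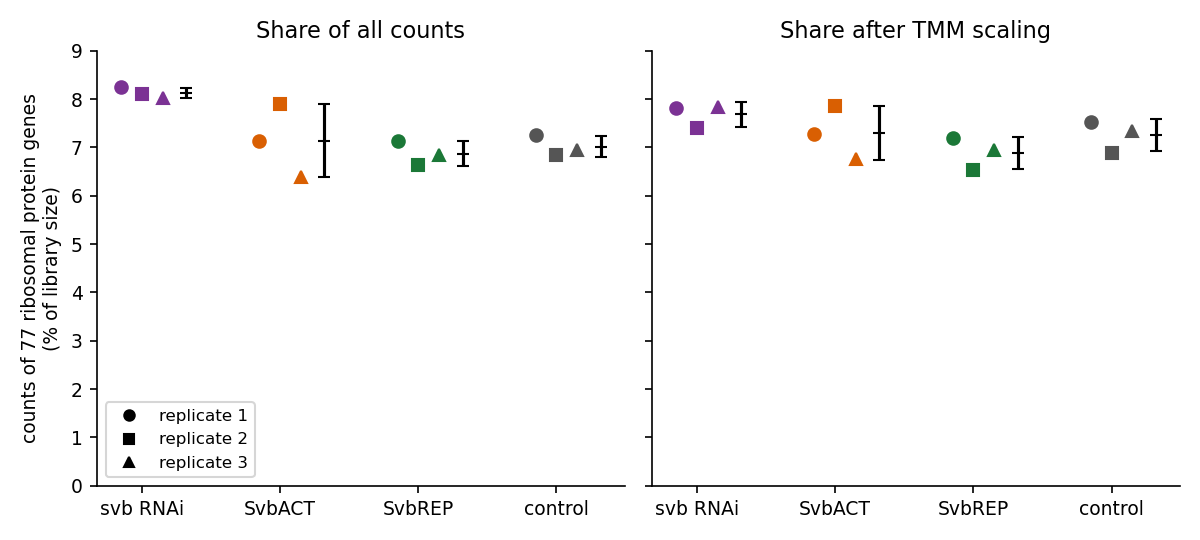
Share of each library's counts taken by the 77 genes, in % of the library total (left) and of the TMM-scaled library size (right), for svb RNAi, SvbACT, SvbREP and control. Points are libraries, with the shape marking the replicate, and bars give the mean ± SD (n = 3). On the left the svb RNAi-labelled libraries sit at 8.02% to 8.24%, above the control libraries at 6.84% to 7.26%, and on the right these groups overlap.

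In the svb RNAi-labelled libraries, few ribosomal protein genes differed from control, and by small amounts. In edgeR's quasi-likelihood test with Benjamini-Hochberg adjustment over all 7992 genes, 5 of 77 were called at an adjusted p under 0.05, against 20.4% of all genes tested. Of these, 4 rose (6.74% of all genes rose) and 1 fell (13.7% of all genes fell). DESeq2 called more genes, among them RpL9, RpLP2 and RpS9 (adjusted p = 0.0236, 0.0302 and 0.0354 in DESeq2). Its count, and that of edgeR with the replicate number as a block, are given at the end with the shares of all genes. The median log2 fold change of the 77 genes was 0.08, against 0.02 over all genes tested, and 56 of the 77 were positive, against 51.7% of all genes. The 95% interval of the fold change lay within 2-fold in either direction for all 77 genes and within 1.5-fold for 64. The medians were 0.09 for small subunit and 0.08 for large subunit genes.

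RpL3 (FBgn0020910; BDGP6.54 chromosome 3R, 11221894 to 11225173, plus strand), the protein that reaches toward the peptidyl transferase centre, was the member that fell. It had 2493, 2527 and 2683 CPM in the svb RNAi-labelled libraries, against 3208, 3890 and 3341 CPM in control. The 3 svb RNAi-labelled libraries all lay below the 3 control libraries. The log2 fold change was -0.44 (adjusted p = 0.00868 in edgeR, SE 0.11). It remained under 0.05 with any 1 of these 6 libraries left out, with adjusted p-values of 0.00757 to 0.033 in edgeR. With library totals in place of TMM factors, the log2 fold change was -0.31 and the adjusted p in edgeR was 0.0619. Exons of RpL3 overlap an antisense RNA gene, asRNA:CR31144, and its counts are uncertain to that extent.

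The 4 genes that rose had nearly the same fold. RpL32 (FBgn0002626; chromosome 3R, 30045229 to 30046161, minus strand) is widely used as a reference gene in fly quantitative PCR. It had 797, 712 and 806 CPM in the svb RNAi-labelled libraries, against 665, 528 and 598 CPM in control. All 3 were above all 3, with a log2 fold change of 0.37 (adjusted p = 0.0244 in edgeR, SE 0.11). RpS16 (FBgn0034743; chromosome 2R, 22605745 to 22607995, plus strand), a small subunit protein whose tail touches the transfer RNA in the P site, had 1049, 990 and 1025 CPM, against 859, 716 and 811 CPM in control. Its groups did not overlap either, and its log2 fold change was 0.36 (adjusted p = 0.0248 in edgeR, SE 0.11).

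RpL11 (FBgn0013325; chromosome 2R, 19442342 to 19443825, plus strand) binds 5S ribosomal RNA together with RpL5. It had 872, 843 and 861 CPM in the svb RNAi-labelled libraries, against 696, 651 and 664 CPM in control, with no overlap and a log2 fold change of 0.36 (adjusted p = 0.0257 in edgeR, SE 0.11). Its partner RpL5 had a mean of 1979 ± 120 CPM in the svb RNAi-labelled libraries and 1883 ± 273 CPM in control (SD, n = 3 each) and was not called. RpL35 (FBgn0029785; chromosome X, 5672401 to 5673547, plus strand), which sits at the mouth of the exit tunnel, had 1239, 1160 and 1366 CPM, against 1045, 844 and 1031 CPM in control. Again the groups did not overlap, with a log2 fold change of 0.37 (adjusted p = 0.0407 in edgeR, SE 0.12).

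**Figure D2:**
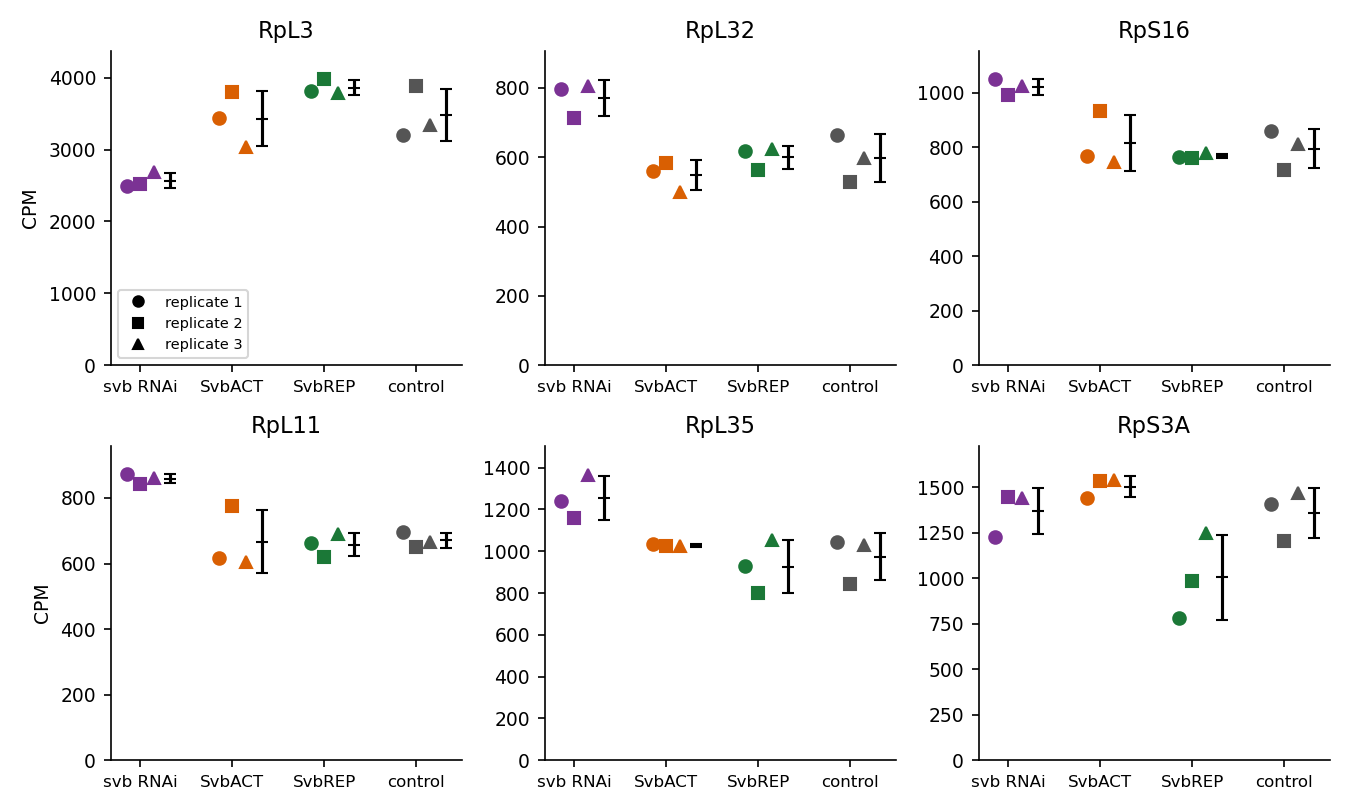
Level in CPM of the 5 genes called in svb RNAi-labelled libraries against control, and of RpS3A, called in SvbACT against SvbREP, in svb RNAi, SvbACT, SvbREP and control. Points are libraries, shapes mark replicates and bars give the mean ± SD (n = 3). RpL3 is lower in the svb RNAi-labelled libraries than in all 9 others, and RpS3A has its lowest mean in SvbREP, where its replicates range from 781 to 1248 CPM.

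The calls of these 4 genes were lost when single libraries were left out. Without svb RNAi replicate 1 or 3, or without control replicate 2 or 3, each of the 4 had an edgeR adjusted p above 0.05, at 0.077 to 0.182, and the count of called genes was 1. The library totals alternative gave 19 called genes, all higher (11.5% of all genes were), and the median log2 fold change was then 0.21. Without regard to the test, 16 of the 77 genes had all 3 svb RNAi-labelled libraries above all 3 control libraries, against 15.9% of all genes tested, and 3 had them all below, against 19.8%. Markers of progenitors and of other cells moved with this group as well. Of 10 progenitor markers tested, 7 fell, among them the Notch ligand gene Dl (log2 fold change -0.84, edgeR adjusted p = 0.0021). The gene esg, whose driver marked the cells, was not among the 7. Of those that fell, zfh2 averaged 2436 CPM in the svb RNAi-labelled libraries and 4007 CPM in control, and the cytokine gene upd3 4.11 and 53.5 CPM. The summed level of the listed progenitor markers was 7231 to 8610 CPM, against 10100 to 11560 CPM in control. The summed level was 131.4 to 175.1 CPM for fat body markers, against 496.1 to 891.9 CPM in control, and 68.99 to 78.91 CPM for haemocyte markers, against 266.3 to 358 CPM in control. For visceral muscle markers it was 931.5 to 1046 CPM, against 1947 to 2158 CPM in control, and for tracheal markers 300.1 to 451.6 CPM, against 727.6 to 881.9 CPM in control. None of these 5 sums overlapped between the groups, whereas enterocyte and enteroendocrine sums did. Of 10 visceral muscle markers tested, 2 were called, both lower. Tm1 averaged 554 CPM in the svb RNAi-labelled libraries and 1315 CPM in control, and Zasp52 80.0 and 352. The muscle gene Mhc had 23 to 64 counts, against 42 to 71 in control. Most of the tracheal, haemocyte and fat body sums came from 1 gene each. Mur2B averaged 393 CPM in the svb RNAi-labelled libraries and 801 CPM in control, crq 66.6 and 292, and FASN1 147 and 629. No other gene of these 3 lists was called. The median log2 fold changes of the 4, 2 and 4 genes tested were 0.45, -1.57 and -0.70 in the same order. The part of these markers in the ribosomal protein results was not tested.

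SvbACT left the ribosomal protein genes near their control levels. In edgeR's test, 0 of 77 were called against control, where 9.15% of all genes were. At an unadjusted p under 0.05 the count was also 0, against 20.3% of all genes, and DESeq2 called 0 (11.4% of all genes). The lowest edgeR adjusted p among the 77 was 0.372, and the median log2 fold change was 0.01, as over all genes tested. The interval of the fold change lay within 1.5-fold in either direction for 71 genes and within 2-fold for 76. The exception was RpL38, with 289, 169 and 357 CPM in SvbACT and 468, 151 and 401 CPM in control, and an interval of -1.09 to 0.45 on the log2 scale. RpL34a was the single gene with all 3 SvbACT libraries above all 3 control libraries, which 12.2% of all genes showed. It had 78.1, 107 and 86.0 CPM in SvbACT and 77.8, 77.4 and 76.4 CPM in control, with a log2 fold change of 0.23 (adjusted p = 0.372 in edgeR, SE 0.13).

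In the main test SvbREP gave no call either, with values that leaned downward in some of the smallest genes. In edgeR's test, 0 of 77 genes were called against control, where 4.05% of all genes were, and DESeq2 called 0 (7.10% of all genes). At an unadjusted p under 0.05 there were 15, all lower, against 17.9% of all genes in either direction and 9.83% lower. The median log2 fold change was -0.05, against 0.00 over all genes, and 50 of the 77 were negative. In 8 genes all 3 SvbREP libraries lay below all 3 control libraries, against 10.5% of all genes. The authors' deposited table called RpL39 alone of the 77 in this comparison, with a log2 fold change of -0.79. Of all genes, 6.03% were called and 4.02% were called lower in the authors' deposited table. With the replicate number as a block, edgeR did call genes, all lower. Among them were RpL38, RpL39 and RpL41 (adjusted p = 0.013, 0.0209 and 0.0316 in edgeR with the block). These calls are listed at the end with the share of all genes.

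The most negative values belonged to RpL38, RpL39, RpL41 and the low paralogue RpS15Ab, followed by RpS29, and these genes were singled out after their values were seen. RpL38 (FBgn0040007; chromosome 2R, 4515388 to 4516458, minus strand), a small protein of the large subunit, had 185, 125 and 275 CPM in SvbREP, against 468, 151 and 401 CPM in control. The groups overlapped, since control replicate 2 was lower than 2 of the SvbREP libraries. The log2 fold change was -0.80 (adjusted p = 0.27 in edgeR, SE 0.37).

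RpL39 (FBgn0023170; chromosome 2R, 24061853 to 24062431, minus strand) lines the exit tunnel, and its exons overlap RpL12. It had 189, 178 and 357 CPM in SvbREP, against 535, 252 and 458 CPM in control, with a log2 fold change of -0.78 (adjusted p = 0.122 in edgeR, SE 0.26). RpL41, which lies between the subunits, had 754, 618 and 1090 CPM in SvbREP, against 1792, 697 and 1464 CPM in control (log2 fold change -0.68, SE 0.27, edgeR adjusted p = 0.188). In both genes control replicate 2 lay within the range of SvbREP. RpS29, a zinc-binding protein of the small subunit's head whose exons overlap the antisense gene asRNA:CR31514, had 556, 536 and 849 CPM in SvbREP, against 1243, 620 and 1041 CPM in control. Its log2 fold change was -0.58 (adjusted p = 0.161 in edgeR, SE 0.22), and control replicate 2 again fell among the SvbREP values.

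The number of calls changed with the libraries kept. Without control replicate 2, edgeR called 9 of the 77 genes, all lower in SvbREP, against 2.87% of all genes lower. They were RpL15, RpL36, RpL36A, RpL38, RpL39, RpL40, RpL41, RpS27 and RpS29. The log2 fold changes of RpL38, RpL39 and RpL41 were then -1.14, -1.03 and -0.98, and their adjusted p-values in edgeR were 0.0384, 0.0172 and 0.00934. Without SvbREP replicate 3, which was the highest SvbREP library for RpL38, RpL39, RpL41 and RpS29, the count was 3 (RpL39, RpS29 and RpS3A, all lower, against 2.79% of all genes). With any other of the 6 libraries left out, it was 0.

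Outside SvbACT, short genes moved together between libraries, and most genes of middle length moved with them. The 77 genes were split by transcript length into 20 short ones (562 bp or less), 20 long ones (774 bp or more) and 37 between. The mean log2 CPM of the short genes minus that of the long ones was -0.69, -0.95 and -0.81 in the svb RNAi-labelled libraries, -0.97, -1.22 and -0.89 in SvbACT, -1.12, -1.33 and -0.95 in SvbREP, and -0.67, -1.29 and -0.85 in control, for replicates 1, 2 and 3. Replicate 2 was the lowest in every group. In control, 19 of the 20 short genes had their lowest value in replicate 2, against 37.7% of all genes tested, and in SvbREP 17 did, against 31.7%. In the svb RNAi-labelled libraries the count was 18, against 33.8%, and in SvbACT it was 9, against 35.2%. Of the 37 genes between, 21 were lowest in replicate 2 in control, 27 in SvbREP, 24 in the svb RNAi-labelled libraries and 4 in SvbACT. Of the 20 long genes, 7, 7, 5 and 1 were, in the same order. In SvbACT replicate 2 the median deviation from the group mean was 0.15 for long genes and -0.01 for short ones.

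The other short genes showed part of this pattern. The 338 other tested genes with transcripts of 562 bp or less deviated from the control mean by a median of -0.33 (log2 CPM) in control replicate 2 and 0.26 in control replicate 1. In SvbREP their medians were -0.08, -0.07 and 0.22 in replicates 1, 2 and 3, so replicate 2 was not the lowest there, and in SvbACT they lay between -0.02 and 0.04. In SvbREP against control, 1 of the 20 short ribosomal protein genes had a positive log2 fold change, with a median of -0.14, while 11 of the 20 long ones did, with a median of 0.01. The median of the 338 other short genes was -0.19. In the svb RNAi-labelled libraries against control, 19 of the 20 short genes were positive, with a median of 0.12, and 14 of the 20 long ones, with a median of 0.08. The median of the 338 other short genes was 0.00 in that comparison. In SvbACT against control it was -0.27, while 9 of the 20 short ribosomal protein genes were positive, with a median of -0.05. Of the 20 long ones 15 were positive there, with a median of 0.05.

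Enteroendocrine markers varied between the same libraries. Their summed level was 3428, 4359 and 891 CPM in SvbREP replicates 1, 2 and 3, and 820, 1620 and 730 CPM in control, so it was highest where RpL38 and RpL39 were lowest within these 2 groups. The library labelled svb RNAi replicate 1 had 2076 CPM of the same markers together with 466 CPM of RpL38, among the highest values of that gene. Of the 13 enteroendocrine markers tested, 0 were called by edgeR in SvbREP against control, 4 had an unadjusted p under 0.05 and DESeq2 called 1. Their median log2 fold change was 1.31. Of 17 enterocyte markers tested, edgeR called 1, which was lower, 11 had an unadjusted p under 0.05 and DESeq2 called 6. The median of these 17 was -2.18, while their list's summed level overlapped, at 1378 to 1598 CPM in SvbREP and 1463 to 1714 CPM in control. The progenitor gene esg, whose driver marked the cells, fell to 1292 ± 42.2 CPM in SvbREP, against 2028 ± 150 CPM in control (SD, n = 3 each; log2 fold change -0.65, adjusted p = 0.00345 in edgeR). Of the 4 tracheal markers tested, 1 was called lower and 1 higher, and their median log2 fold change was 2.24. Mur2B fell to 452 ± 16.6 CPM in SvbREP, against 801 ± 77.1 CPM in control (adjusted p = 0.0434 in edgeR). The low gene trh rose to 2.89 ± 2.05 CPM in SvbREP, against 0.062 ± 0.108 CPM in control (adjusted p = 0.0475 in edgeR). The part of these markers in the ribosomal protein values was not tested.

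**Figure D3:**
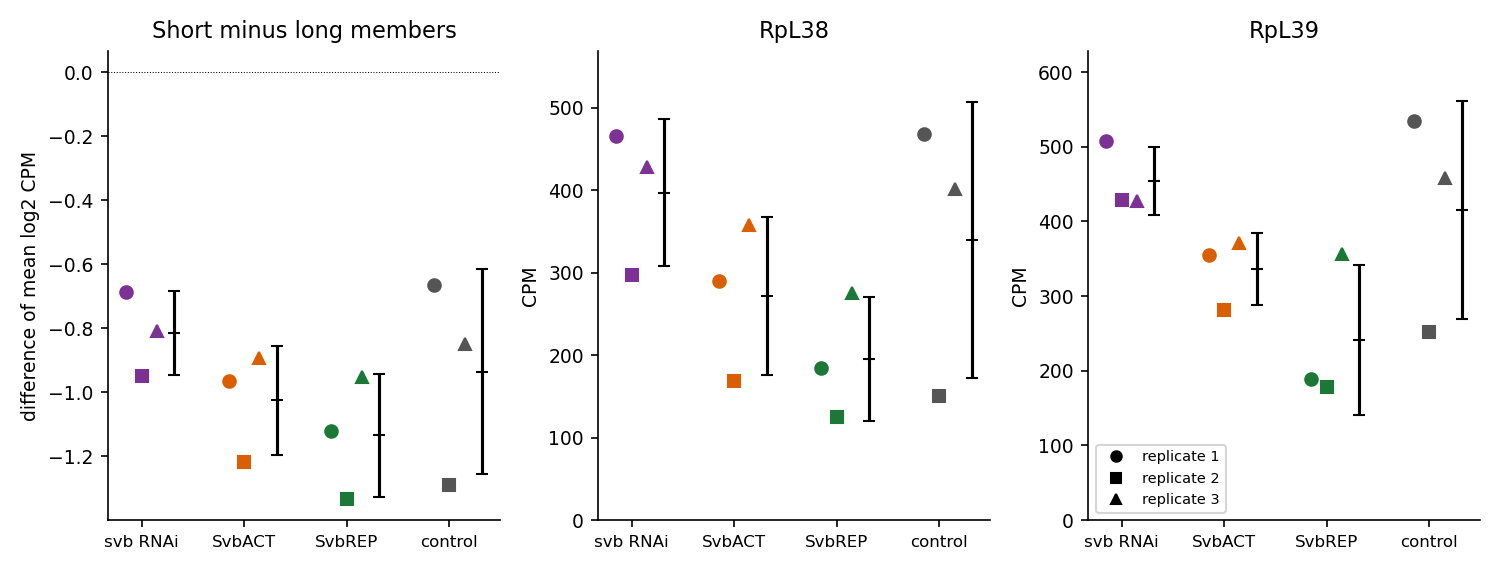
Left, mean log2 CPM of the 20 short minus the 20 long ribosomal protein genes in each library. Middle and right, level of RpL38 and RpL39 in CPM, in svb RNAi, SvbACT, SvbREP and control. Points are libraries, shapes mark replicates and bars give the mean ± SD (n = 3). The squares of replicate 2 are the lowest of their group in the left panel and for RpL38, and control replicate 2 has 151 CPM of RpL38 against 401 and 468 CPM in the other control libraries.

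SvbACT and SvbREP were also set against each other. In edgeR's test, 1 of 77 genes was called, against 13.1% of all genes tested, and it was higher in SvbACT (6.51% of all genes were). RpS3A (FBgn0017545; chromosome 4, 65225 to 67207, minus strand) encodes a small subunit protein beside the channel through which messenger RNA leaves. It had 1438, 1532 and 1542 CPM in SvbACT, against 781, 987 and 1248 CPM in SvbREP. The groups did not overlap, and the log2 fold change was 0.58 (adjusted p = 0.0144 in edgeR, SE 0.15). In control it had 1406, 1204 and 1467 CPM, and in the svb RNAi-labelled libraries 1224, 1448 and 1439 CPM.

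Against control, the log2 fold change of RpS3A was 0.15 in SvbACT (adjusted p = 0.658 in edgeR, SE 0.14) and -0.43 in SvbREP (adjusted p = 0.117 in edgeR, SE 0.14). These comparisons share the control libraries. The call was lost without SvbREP replicate 1 or 2 or SvbACT replicate 3, with edgeR adjusted p-values of 0.0728, 0.0585 and 0.0501. Without SvbACT replicate 3, RpL18 was called in its place. The other tested genes of chromosome 4, the small chromosome with its own regulation, numbered 66. Their median log2 fold change in SvbACT against SvbREP was 0.19, and 8 were called, 6 higher and 2 lower.

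Across the 77 genes the median log2 fold change of SvbACT against SvbREP was 0.10, against 0.00 over all genes, and 58 were positive. In 7 genes all 3 SvbACT libraries lay above all 3 SvbREP libraries, against 14.5% of all genes, and in 0 they lay below, against 13.4%. The interval of the fold change lay within 2-fold for 74 genes. Same-numbered libraries of these 2 groups deviated together. Blocking on replicate number, edgeR called 4 genes higher in SvbACT, RpS3A, RpL15, RpL36 and RpLP2, against 8.67% of all genes.

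**Figure D4:**
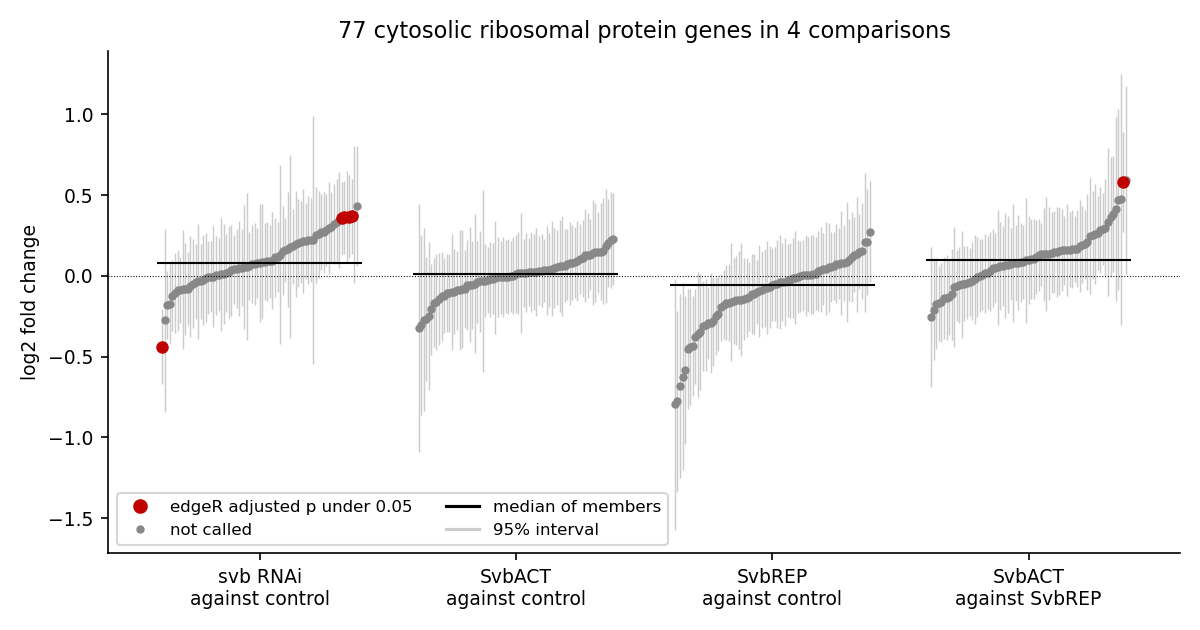
Log2 fold change of each of the 77 genes, sorted within each of 4 comparisons, svb RNAi, SvbACT and SvbREP against control and SvbACT against SvbREP. Grey bars are 95% intervals, red points passed an edgeR adjusted p of 0.05 (5, 0, 0 and 1 genes) and black lines are the medians, at 0.08, 0.01, -0.05 and 0.10. The lowest values in SvbREP against control have wide intervals and are not called.

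A test over the 4 groups at once asked which genes differed anywhere. In edgeR's test 11 of the 77 were called, against 28.8% of all genes. Besides the 5 genes called in the svb RNAi-labelled libraries and RpS3A, these were RpL36, RpL40, RpLP2, RpS9 and RpS20. All 5 of these additional genes had their highest mean in the svb RNAi-labelled libraries and their lowest in SvbREP. RpL36, a large subunit protein, averaged 1260 ± 183 CPM in the svb RNAi-labelled libraries, 877 ± 44.1 in SvbACT, 681 ± 114 in SvbREP and 932 ± 249 in control (SD, n = 3 each; edgeR adjusted p = 0.00753 over the groups). The ubiquitin fusion RpL40 averaged 1825 ± 191, 1282 ± 20.6, 1106 ± 122 and 1435 ± 294 CPM in the same order (edgeR adjusted p = 0.0051). The other ubiquitin fusion, RpS27A, showed no such spread, with means of 760 ± 86.6 CPM in the svb RNAi-labelled libraries, 799 ± 57.6 in SvbACT, 737 ± 25.7 in SvbREP and 765 ± 52.2 in control.

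The stalk proteins also differed in this respect. RpLP2 averaged 1804 ± 99.5 CPM in the svb RNAi-labelled libraries, 1475 ± 108 in SvbACT, 1206 ± 133 in SvbREP and 1479 ± 23.6 in control (SD, n = 3 each; edgeR adjusted p = 0.00417 over the groups). Against control its log2 fold changes were 0.29 in the svb RNAi-labelled libraries (edgeR adjusted p = 0.0674) and -0.29 in SvbREP (edgeR adjusted p = 0.139), and neither was called. RpLP1 averaged 973, 909, 810 and 961 CPM and RpLP0 1729, 1731, 1634 and 1625 CPM in the same order of groups, with no call. The difference between RpLP2 and the other stalk genes was not tested.

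RpS9 and RpS20 lie in the small subunit, RpS9 near the channel through which messenger RNA enters. RpS9 averaged 1436 ± 67.1 CPM in the svb RNAi-labelled libraries, 1142 ± 186 in SvbACT, 1063 ± 76.4 in SvbREP and 1148 ± 61.8 in control (edgeR adjusted p = 0.0382 over the groups, n = 3 each). RpS20 averaged 664 ± 57.7, 576 ± 40.7, 473 ± 35.3 and 527 ± 83.9 CPM in the same order (edgeR adjusted p = 0.033). Exons of both genes overlap a neighbouring gene of the table.

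For 3 proteins the table holds both copies of a paralogue pair, and in each pair the same copy dominated in all 12 libraries. RpS14a and RpS14b lie next to each other on chromosome X, from 7933742 to 7934677 and from 7934898 to 7935792 on the plus strand, and encode a protein of the small subunit's platform. RpS14b took 20.8 ± 1.49% of the pair's counts in the svb RNAi-labelled libraries, 20.2 ± 0.44% in SvbACT, 19.8 ± 0.34% in SvbREP and 20.9 ± 1.21% in control (SD, n = 3 each). The groups overlapped. The copies are close in sequence, so the split of reads between them is uncertain.

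RpL34a and RpL34b lie apart on chromosome 3R. RpL34a took 14.8 ± 1.59% of the pair's counts in the svb RNAi-labelled libraries, 16.4 ± 2.54% in SvbACT, 13.7 ± 1.60% in SvbREP and 14.2 ± 1.96% in control (SD, n = 3 each), with overlap among all groups. In CPM, RpL34b averaged 546 ± 34.9 in the svb RNAi-labelled libraries and 472 ± 68.8 in control, and RpL34a 94.7 ± 9.77 and 77.2 ± 0.72.

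RpS15Ab, on chromosome 2R at 10821676 to 10822399, was a minor partner of RpS15Aa on X, with 30 to 110 counts per library. It took 1.87 ± 0.46% of the pair's counts in the svb RNAi-labelled libraries, 2.13 ± 0.16% in SvbACT, 1.56 ± 0.31% in SvbREP and 2.17 ± 0.43% in control (SD, n = 3 each). The share was 1.95%, 2.25% and 2.20% in SvbACT, against 1.35%, 1.42% and 1.91% in SvbREP, with no overlap, and the other groups overlapped with each of these and with each other. Its log2 fold change in SvbREP against control was -0.62 (adjusted p = 0.242 in edgeR, SE 0.27), and that of RpS15Aa was -0.17 (adjusted p = 0.459 in edgeR, SE 0.11). None of the 6 paralogues was called in any of the 4 comparisons.

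**Figure D5:**
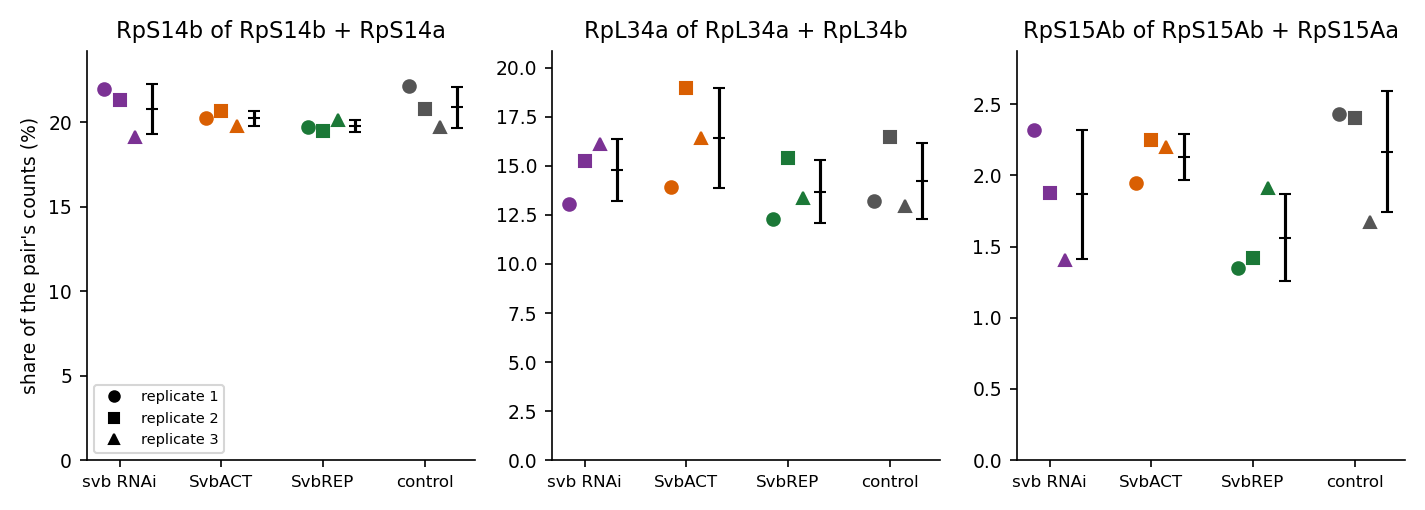
Share of the less abundant copy in the counts of each paralogue pair, in %, for svb RNAi, SvbACT, SvbREP and control. Points are libraries, shapes mark replicates and bars give the mean ± SD (n = 3). RpS14b stays near 20%, RpL34a between 12.3% and 19.0% and RpS15Ab near 2%. The groups overlap, except that RpS15Ab lies higher in all 3 SvbACT libraries than in all 3 SvbREP libraries.

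Among other genes with a copy letter, whose partners were not analysed here, RpS19a, RpS28b, RpL10Ab and RpL37a were not called in any of the 4 comparisons. RpL37a averaged 1623 ± 79.3 CPM in the svb RNAi-labelled libraries, 1716 ± 310 in SvbACT, 1598 ± 35.7 in SvbREP and 1727 ± 63.4 in control. RpL10Ab varied most in SvbREP, with 2137, 1573 and 1289 CPM, against 1300, 1401 and 1435 CPM in control. The assembly factor relatives were low and uncalled as well. RpL24-like averaged 141 ± 8.91 CPM in the svb RNAi-labelled libraries, 138 ± 24.0 in SvbACT, 155 ± 15.2 in SvbREP and 143 ± 11.8 in control, and RpLP0-like 46.6 ± 11, 34.7 ± 2.64, 41.2 ± 5.91 and 35.9 ± 7.29 CPM.

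The factors that work with the ribosome were counted from a list of 41 translation factor genes, 37 of which were tested. In the svb RNAi-labelled libraries 3 rose and 4 fell against control, which is 7 of 37 and close to the 20.4% of all genes called. The largest of these in level was eEF1alpha1, which delivers transfer RNAs to the ribosome. It fell to 9174 ± 904 CPM in the svb RNAi-labelled libraries, against 14963 ± 712 CPM in control (SD, n = 3 each; log2 fold change -0.71, edgeR adjusted p = 0.000116). Other genes that fell were the initiation factor genes eIF1A, eIF3g1 and eIF3c, with log2 fold changes of -0.56, -0.43 and -0.38. Those that rose were eEF1delta, a subunit of the exchange factor of eEF1alpha, with 0.68, the initiation factor eIF1 with 0.66 and the release factor eRF3 with 0.31. In SvbACT 1 rose, where 9.15% of all genes were called. It was eEF1beta, with a log2 fold change of 0.64 (edgeR adjusted p = 0.029). In SvbREP against control, and in SvbACT against SvbREP, edgeR called 0 of the 37. At an unadjusted p under 0.05 there were 4 and 6, and DESeq2 called 0 and 4. The median log2 fold change of the list was 0.04, -0.02 and 0.01 in the svb RNAi-labelled libraries, SvbACT and SvbREP against control.

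A list of 11 genes known to respond when a ribosomal protein gene is lost, or to growth and stress signals tied to it, had 9 genes tested. In the svb RNAi-labelled libraries 0 rose and 4 fell, namely the cell death gene hid, the stress gene Gadd45, the cytokine gene upd3 and Thor, which encodes the inhibitor of the cap-binding factor eIF4E. Of all genes 13.7% fell in that comparison. In SvbACT 0 rose and 4 fell, which were hid, Gadd45, Thor and Xrp1, against 5.23% of all genes lower. Xrp1 encodes the transcription factor that slows growth in Minute flies, and it averaged 1082 ± 57.1 CPM in SvbACT, against 1455 ± 92.4 CPM in control (SD, n = 3 each; log2 fold change -0.43, edgeR adjusted p = 0.039). In SvbREP against control Thor fell, with 129 ± 25.1 CPM in SvbREP and 200 ± 12 CPM in control (log2 fold change -0.63, edgeR adjusted p = 0.022), and no other gene of the list was called, against 2.70% of all genes lower. Between SvbACT and SvbREP, hid, Xrp1 and Thor were lower in SvbACT, with log2 fold changes of -1.21, -0.84 and -0.58, against 6.63% of all genes lower.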

How the data were processed

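The authors deposited 1 table of raw counts per gene, as whole numbers for 12 libraries, together with their own log2 fold changes, p-values and calls, coded as a score by the authors. Per the submitters' processing notes, FastQC 0.11.5, STAR 2.5.2b, HTSeq 0.6.0, edgeR and genome build dm6 were used. The order of these steps, the strand setting and the choice of genes are not given in the sources used here. Per the labels, the Ovation SoLo kit gave the libraries, sequenced as single reads of 100 nt. Columns were matched to samples by name, with dsOvo taken as svb RNAi and Cs as Canton-S.

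Counts were tested with edgeR 4.0.16 in R 4.3.3 (TMM factors, filterByExpr with a minimum count of 10, quasi-likelihood F test, 1 model with a mean per group). Genes with a Benjamini-Hochberg adjusted p-value under 0.05 over all 7992 genes were called. DESeq2 1.42.0 was an alternative. Log2 CPM used a prior count of 2, and the standard error is the absolute log2 fold change over the square root of F. The procedure was tested on simulated data. Replicates of a group differed by more than counting noise, with a chi-square per degree of freedom of at least 7.89. Wilson intervals of shares cover counting error only, since amplified reads are not independent molecules, while intervals of fold changes come from the spread between replicates.

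Replicate numbers come from the titles. Deviations from group means correlated between same-numbered libraries at 0.113 to 0.248 in SvbACT and control and at 0.103 to 0.199 in SvbACT and SvbREP, so these are taken as paired. For svb RNAi and control they were 0.067 to 0.195 and for SvbREP and control -0.081 to 0.246, which alone is not taken as pairing. Since SvbACT is taken as paired with both control and SvbREP, the numbers of SvbREP and control may match too. The main model has no block, and the counts with a block are given at the end.

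Identifiers of 8686 genes matched Ensembl release 115 (assembly BDGP6.54), the source of coordinates, snoRNAs and overlaps. Transcript length is that of the shortest transcript holding the longest coding sequence. Members and lists were chosen with earlier results of these data known. Genes named are the paralogues, the genes called in a comparison, the 3 highest and 3 lowest per kb, the stalk and ubiquitin fusion genes, and called genes of the lists. The length definition and classes, RpL38, RpL39, RpL41, RpS29, RpS3A and RpS15Ab in SvbREP, the genes called over the 4 groups, and the alternatives that use library totals or a TMM-scaled share were chosen after seeing the data. Some items are not reported here.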

Additional observations from a re-analysis of the deposited data

How the results depend on the processing

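Unless said otherwise, counts are of the 77 genes called at an adjusted p under 0.05. With edgeR using DESeq2's size factors, TMM factors computed without the 77 genes, or no filter on low counts, the counts were within 1.5 times of those reported. DESeq2 called 10 in the svb RNAi-labelled libraries against control (22.4% of all genes). With the replicate number as a block, edgeR called 13 in that comparison (12 higher, 1 lower, against 25.6% of all genes). It called 9 in SvbREP against control, all lower, against 8.30% of all genes. They were RpL15, RpL21, RpL36, RpL38, RpL39, RpL40, RpL41, RpS29 and RpS3A. The block gave 4 in SvbACT against SvbREP, higher in SvbACT, as were 8.67% of all genes. It gave 25 over the 4 groups and left SvbACT against control at 0. The numbers pair the libraries in the comparisons of SvbACT with control and with SvbREP. Between svb RNAi and control 5 of 6 libraries correlated best with their own number, and between SvbREP and control 3 of 6, which is a hint from the data and not the design. With library totals in place of TMM factors, 19 were called in the svb RNAi-labelled libraries against control, all higher, as were 11.5% of all genes. The median log2 fold change in that comparison was 0.21, and 24 were called over the 4 groups. Leaving out 1 library at a time gave 1 to 7 calls in the svb RNAi-labelled libraries against control, 0 to 9 in SvbREP against control, 0 to 2 in SvbACT against SvbREP, 4 to 20 over the 4 groups and 0 in SvbACT against control. Counts given here without a share of all genes show only how the calls changed with the processing. Without the genes that overlap another or have a paralogue, 44 remained, with shares of 5.15% in the svb RNAi-labelled libraries, 4.44% in SvbACT, 4.24% in SvbREP and 4.38% in control. On the TMM-scaled library size, the shares of all 77 were 7.68% in the svb RNAi-labelled libraries and 7.26% in control. The cause of these shifts was not tested. With 1 library left out, the median log2 fold change ran from -0.05 to 0.07 in SvbACT and from -0.10 to 0.01 in SvbREP against control. The fold changes of RpL3, RpL11, RpL32, RpL35 and RpS16 in the svb RNAi-labelled libraries, of RpS3A in SvbACT against SvbREP, and of RpL38, RpL39, RpL41, RpS29, RpS3A and RpS15Ab in SvbREP kept their sign in every alternative run. With 3 libraries a group, the median standard error of the 77 log2 fold changes was 0.12 against control. Shifts well above that size could go uncalled, as RpS20 at 0.34 (adjusted p = 0.0704 in edgeR) in the svb RNAi-labelled libraries.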
